A study of Mus musculus with 17 samples.

Results

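The genes examined here were the ligands and receptors of platelet-derived growth factor (PDGF): Pdgfa, Pdgfb, Pdgfc and Pdgfd, which encode the ligand chains, and Pdgfra and Pdgfrb, which encode the receptors. They were chosen by name, and all 6 were found among the 55450 genes of the bulk table and the 35849 genes of the single-cell matrices. The samples were cultured cell lines from MMTV-PyMT mice, in which a mammary tumor virus promoter drives the polyoma middle T oncogene in mammary epithelium. Lines were grown from mammary fat pad tumors (MFP) and from bone marrow (BM), lung and lymph node (LN) of mice with metastases. They were then sorted as CD44low or CD44high cells, with high surface EpCAM, an epithelial adhesion protein, required of both. The mice were FVB/NJ females of 10 to 12 weeks, and the labels give no drug treatment or further allele. By the methods, the replicates of a group were separate clonal lines, each from another mouse. Bulk RNA-seq covered 14 libraries, 2 for each of 7 groups: MFP, and CD44low and CD44high cells of LN, BM and lung. The MFP group carried no CD44 label. Single-cell RNA-seq covered 3 libraries: lung CD44low (lungL), lung CD44high (lungH) and LN CD44high cells (lymphH).

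PDGF chains pair into dimers that bind and activate receptor tyrosine kinases. The A and B chains are processed inside the cell, whereas the C and D chains are secreted in a latent form and need cleavage by extracellular proteases. PDGF receptors are best known on fibroblasts, pericytes and smooth muscle cells, and carcinoma cells are known mostly as a source of ligand. PDGFRA binds the A, B and C chains, and PDGFRB binds B and D.

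The labels were checked first. Epcam, the gene of the sorting antigen, was listed between 315.09 and 941.14 TPM (the length-scaled share of a library's transcripts) in the 10 libraries of MFP, LN and BM. In the 4 lung libraries it was listed at 0, 0, 0.23 and 0.86 TPM. The RNA of the lung libraries therefore went against the EpCAM label, and the names of lung groups below are those of the labels. Of 10 epithelial markers, 9 were tested and all 9 were lower than MFP in both lung groups, with summed levels of 7201 to 8328 TPM in MFP, 2.43 to 2.61 TPM in lung CD44low and 15.99 to 87.65 TPM in lung CD44high. Of 12 fibroblast markers, 10 were tested and all 10 were higher than MFP in lung CD44low, with summed levels of 5832 to 6361 TPM against 14.67 to 34.41 TPM in MFP. Most of the lung CD44low sum came from Dcn, the gene of the proteoglycan decorin. In lung CD44high 4 of these 10 were higher than MFP and the sum was 1834 to 2400 TPM, of which Vim gave 1628 to 2294 TPM, while Thy1 and Col1a2 were listed at 0. The pericyte or smooth muscle markers summed to 759.81 to 826.39 TPM in lung CD44low and 1.02 to 2.70 TPM in lung CD44high, and Acta2 alone gave 657.24 to 710.77 TPM of the first. Endothelial markers summed to at most 0.30 TPM in any library. All 7 cycling markers were lower than MFP in both lung groups. They summed to 36.1 to 37.41 TPM in lung CD44low, 3.75 to 56.53 TPM in lung CD44high and 645.48 to 737.61 TPM in MFP. The BM groups held 3089 to 4947 TPM, LN CD44high 4300 to 4407 TPM, and the LN CD44low libraries 3371 and 476.97 TPM. Cd44 mRNA was not higher in CD44high than in CD44low cells of any organ. It was 146.7 and 82.72 TPM in LN CD44low and 49.04 and 52.26 TPM in LN CD44high, the reverse of the labels, and in BM and lung the groups overlapped (43.77 and 74.9 against 50.49 and 49 TPM, and 12.22 and 21.62 against 21.95 and 12.07 TPM). CD44low and CD44high are therefore used below as labels in all organs, and no direction drawn from them rests on Cd44 mRNA.

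Leaving Pdgfb and Pdgfrb aside, upstream sequence from RefSeq (GRCm38.p6) was examined for 4 of the 6 genes. The 250 bases before the annotated start are shown for 3 of them: Pdgfd and Pdgfra, which had their highest bulk level in the same group, and Pdgfc, which did not. Motifs were searched on both strands: the GC box (GGGCGG), the binding site of the factor AP-1 (TGANTCA), the TATA box (written TATAAA), the E-box (letters CANNTG), the core bound by Krüppel-like factors (CACCC) and the CArG box by name. Capitals mark matches to the GC box, AP-1 site, TATAAA or CArG box. None of these 4 overlapped another in the windows shown.
Pdgfd, chr9:6168236-6168485, plus strand: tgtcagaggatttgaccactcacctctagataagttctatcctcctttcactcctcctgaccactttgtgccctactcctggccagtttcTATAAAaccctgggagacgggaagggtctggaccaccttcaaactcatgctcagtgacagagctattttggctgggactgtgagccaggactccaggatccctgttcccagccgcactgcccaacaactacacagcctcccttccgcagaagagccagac
Pdgfra, chr5:75152001-75152250, plus strand: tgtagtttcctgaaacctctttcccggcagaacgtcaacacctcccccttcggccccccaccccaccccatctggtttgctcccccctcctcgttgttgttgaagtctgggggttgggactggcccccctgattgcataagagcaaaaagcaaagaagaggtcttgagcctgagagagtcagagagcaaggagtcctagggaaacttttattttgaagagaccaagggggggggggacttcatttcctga
Pdgfc, chr3:81036166-81036415, plus strand: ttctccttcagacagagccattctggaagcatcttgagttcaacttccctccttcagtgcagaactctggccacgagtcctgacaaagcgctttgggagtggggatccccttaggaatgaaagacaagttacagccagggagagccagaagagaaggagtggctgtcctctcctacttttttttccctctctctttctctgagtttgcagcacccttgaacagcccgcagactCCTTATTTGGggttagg

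The Pdgfd window held TATAAA, beginning 160 bases before the start, a string present in 12.4% of the 32851 windows of 250 bases searched. The Pdgfc window held a CArG box beginning 17 bases before the start, a match found in 1.47% of windows. The Pdgfra window held none of the capitalised motifs, 2 matches to CACCC (in 52.0% of windows) and 1 to CANNTG (in 66.2%). No window of these 3 genes held a GC box, which 32.7% of windows did, or an AP-1 site, which 6.75% did. The 2 Pdgfa windows, which lie inside the longest annotated span of that gene and are not printed, were richer in G and C, at 66.4% and 72.4% against a median of 52.4%, and held 1 and 2 GC boxes. These are matches of letters and were not tested for use in these cells.

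Against MFP, Pdgfb was called lower and Pdgfrb higher in all 6 groups of lines from other organs. Pdgfa was called lower in 5 (not LN CD44low), Pdgfra higher in 4 (neither LN group) and Pdgfc in none. The 2 calls in LN CD44low were near the threshold (adjusted p = 0.0480 and 0.0438). They were lost with only the groups compared in the fit (0.270 for Pdgfb and 0.0930 for Pdgfrb) and with no filter on low values (0.0865 and 0.0773). With only the groups compared, the BM CD44low calls of Pdgfa, Pdgfb and Pdgfra and the lung CD44high calls of Pdgfb, Pdgfra and Pdgfrb were also lost (0.0508 to 0.150). Calls were made with limma on log2(TPM + 1) at an adjusted p under 0.05 over 15348 genes. All 6 genes passed the filter of 1 TPM in 2 libraries, Pdgfd only through the lung libraries, so its difference between lung and other groups is given as a description. In LN CD44low 2 of the 6 genes were called, against 14% of all genes tested: 1 higher, against 4.5%, and 1 lower, against 9.51%. In LN CD44high 3 were called, against 23.8% of all genes: 1 higher, against 5.87%, and 2 lower, against 17.9%. In BM CD44low 4 were called, against 23.2%: 2 higher, against 9.36%, and 2 lower, against 13.8%. In BM CD44high 4 were called, against 27.0%: 2 higher, against 8.38%, and 2 lower, against 18.6%. In lung CD44low 5 were called, against 45.0%: 3 higher, against 21.9%, and 2 lower, against 23.1%. In lung CD44high 5 were called, against 36.1%: 3 higher, against 14.9%, and 2 lower, against 21.2%. In both lung groups 1 of the 3 was Pdgfd, and without it 4 of the other 5 genes were called. The receptors were thus on the higher side and Pdgfa and Pdgfb on the lower side wherever they were called. These 6 comparisons share the same 2 MFP libraries, and in bulk RNA fewer cells of a type and less RNA per cell cannot be told apart. The p-values measure the spread between 2 clonal lines a group. Epithelial markers were also called lower than MFP outside lung, 5 of 9 tested in LN CD44low, 3 in LN CD44high and 4 in each BM group. Myoepithelial or basal markers summed to 593.61 to 655.43 TPM in MFP, 13.09 to 62.68 TPM in LN and 26.88 to 47.2 TPM in BM. Of 3 tested, 1 was lower in each LN and BM group, and 1 was higher in BM CD44high. The part of these markers in the ligand differences was not tested.

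**Figure D1:**
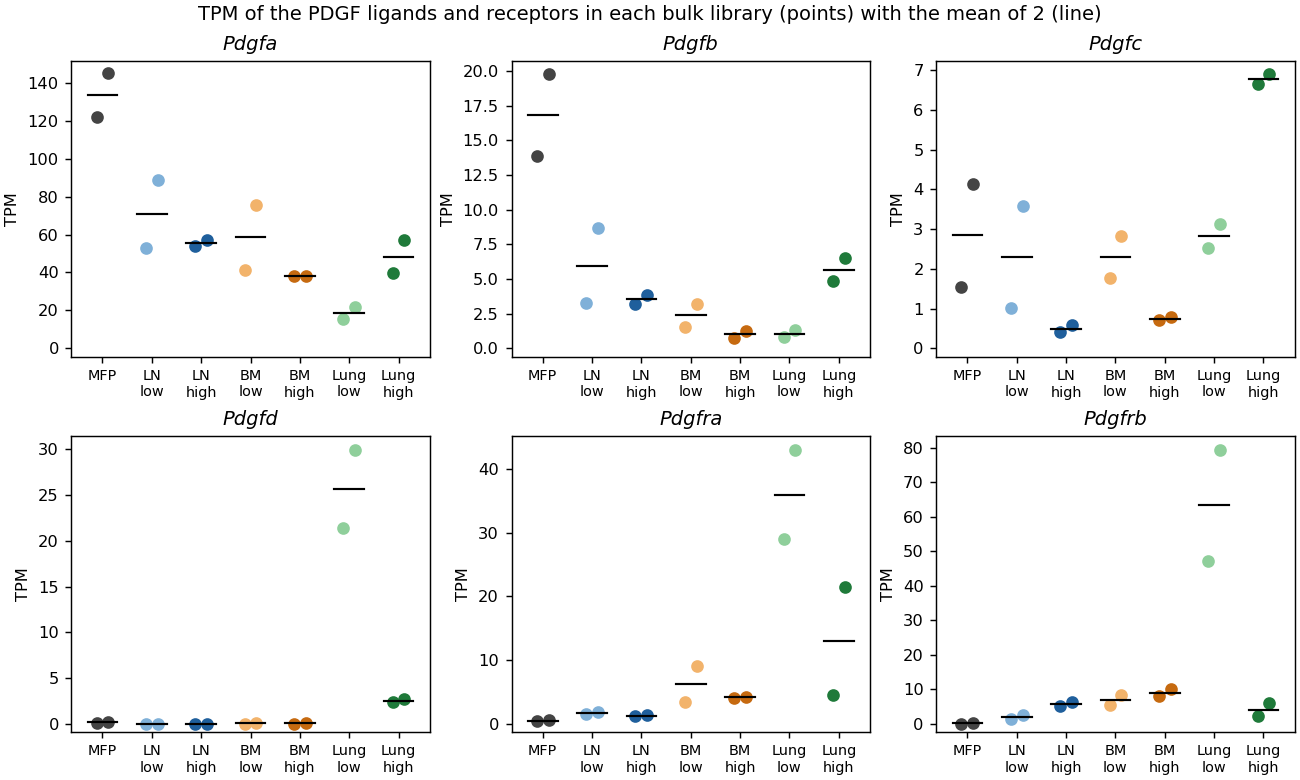
TPM of each gene (vertical axes, TPM on a linear scale that differs between panels) in the 14 bulk libraries; points are libraries, lines the mean of 2, and low and high stand for CD44low and CD44high. Pdgfa and Pdgfb are highest in the 2 MFP libraries, Pdgfc in lung CD44high, and Pdgfd, Pdgfra and Pdgfrb in lung CD44low.

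Pdgfa (chr5:138976014-138997370, minus strand; mm10) encodes the A chain and was the most abundant ligand in 13 of the 14 libraries, all but the second of lung CD44low. MFP held 144.88 and 122.13 TPM, LN CD44low 88.53 and 52.73 TPM, and LN CD44high 57.05 and 53.90 TPM. It stood at 41.51 and 75.40 TPM in BM CD44low, 38.00 and 38.40 TPM in BM CD44high, 22.04 and 15.55 TPM in lung CD44low, and 39.53 and 57.03 TPM in lung CD44high. Both MFP libraries were above all 12 others, and both lung CD44low libraries were below all others. Between them the LN CD44low, BM CD44low, LN CD44high and lung CD44high groups overlapped each neighbour in the order of means. On the log2 scale the difference from MFP was -2.78 ± 0.34 (SE, adjusted p = 0.000114) in lung CD44low and -1.77 ± 0.34 (adjusted p = 0.00405) in BM CD44high. It was -1.47 (adjusted p = 0.00715) in lung CD44high, -1.25 (adjusted p = 0.0242) in LN CD44high and -1.23 (adjusted p = 0.0258) in BM CD44low. The LN CD44low value of -0.95 had an adjusted p of 0.0979 and became a call without its first library (adjusted p = 0.0416). The LN CD44high call was lost without either MFP library or either LN CD44high library (adjusted p = 0.0746 to 0.128), and with median-ratio scaling (-0.71, 0.118). The BM CD44low call was lost without either MFP library or the first BM CD44low library (0.0779 to 0.137; -0.81 without the last), and the lung CD44high call without the first MFP or first lung CD44high library (0.0534 and 0.0639).

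Pdgfb (chr15:79995874-80014977, minus strand) encodes the B chain, which activates both receptors. MFP held 19.76 and 13.84 TPM, LN CD44low 8.66 and 3.27 TPM, and LN CD44high 3.88 and 3.21 TPM. Levels were 1.54 and 3.23 TPM in BM CD44low, 0.77 and 1.25 TPM in BM CD44high, 1.31 and 0.82 TPM in lung CD44low, and 4.83 and 6.50 TPM in lung CD44high. MFP again stood above every other library, and the lowest values were in BM CD44high and lung CD44low, whose ranges overlapped. The differences from MFP were -3.14 ± 0.42 (SE, adjusted p = 0.000563) in BM CD44high, -3.10 ± 0.42 (adjusted p = 0.000252) in lung CD44low and -2.42 ± 0.42 (adjusted p = 0.00274) in BM CD44low. These 3 were called in all 14 fits that left out 1 library. LN CD44high (-1.95, adjusted p = 0.00855) lost its call without the first MFP or the second LN CD44high library (adjusted p = 0.0674 and 0.0585). Lung CD44high (-1.41, adjusted p = 0.0258) lost it without any 1 of its own or the MFP libraries (0.0501 to 0.152). LN CD44low (-1.45, adjusted p = 0.0480) kept its call only without the first LN CD44low library or 1 of the BM CD44low libraries, and was -0.86 (0.260) without its second library.

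Pdgfc (chr3:81036416-81214040, plus strand) encodes the C chain, which signals mainly through PDGFRA. MFP held 4.14 and 1.55 TPM, LN CD44low 3.58 and 1.01 TPM, and BM CD44low 2.82 and 1.76 TPM, groups that all overlapped. In CD44high cells it was 0.41 and 0.59 TPM in LN, 0.78 and 0.71 TPM in BM, and 6.90 and 6.65 TPM in lung, with 3.14 and 2.52 TPM in lung CD44low. The lung CD44high libraries stood above all others, and the LN and BM CD44high libraries below all others. None of the 6 groups differed from MFP at the threshold. The values nearest to it were -1.27 ± 0.42 (SE, adjusted p = 0.0553) in LN CD44high and 1.10 ± 0.42 (adjusted p = 0.0691) in lung CD44high. The first became a call without the second MFP library, either LN CD44low library or the first BM CD44low library (adjusted p = 0.0230 to 0.0498), and the second without the first MFP or either LN CD44low library (0.03 to 0.0349). BM CD44high (-1.05, adjusted p = 0.0959) became a call without either LN CD44low library (0.0433 and 0.0442). Median-ratio scaling also made the lung CD44high value a call.

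Pdgfd (chr9:6168584-6378850, plus strand) encodes the D chain, a latent ligand of PDGFRB. It was 21.41 and 29.96 TPM in lung CD44low and 2.35 and 2.69 TPM in lung CD44high. MFP held 0.21 and 0.08 TPM, the BM libraries between 0 and 0.10 TPM, and all 4 LN libraries were listed at 0. The libraries labelled lung therefore stood apart from the other 10, and lung CD44low from lung CD44high, without overlap. On the log2 scale lung CD44low was 4.53 and lung CD44high 1.62 above MFP, values that carry no test here because the lung libraries alone took the gene past the filter.

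Pdgfra (chr5:75152292-75198215, plus strand) encodes the alpha receptor, a widely used marker of fibroblasts. MFP held 0.35 and 0.48 TPM, LN CD44low 1.47 and 1.77 TPM, and LN CD44high 1.27 and 1.11 TPM. It was 3.34 and 9.10 TPM in BM CD44low, 4.09 and 4.17 TPM in BM CD44high, 28.96 and 43.04 TPM in lung CD44low, and 21.45 and 4.51 TPM in lung CD44high. MFP was below every other library and lung CD44low above every other library, while the lung CD44high libraries lay far from each other and overlapped BM CD44low. The differences from MFP were 4.68 ± 0.59 (SE, adjusted p = 0.000152) in lung CD44low and 2.98 ± 0.59 (adjusted p = 0.00337) in lung CD44high, called in all fits without 1 library. The lung CD44high value was 1.96 without its first library and 3.99 without its second. BM CD44low (2.23, adjusted p = 0.0230) lost its call without either MFP library or the second BM CD44low library (adjusted p = 0.0915 to 0.125). BM CD44high (1.86, adjusted p = 0.0426) kept its call only without 1 of the BM CD44low or lung CD44high libraries, and reached 0.159 without the first MFP library. With a pseudocount of 0.1 the BM values were 3.46 and 3.05 (adjusted p = 0.00543 and 0.00925), and with no filter or a replicate block the BM CD44high call was lost (0.0860 and 0.0617). The LN groups did not pass (0.89, adjusted p = 0.396, and 0.63, adjusted p = 0.498).

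Pdgfrb (on chromosome 18) encodes the beta receptor, characteristic of pericytes and smooth muscle. It was near 0 in MFP, at 0.02 and 0 TPM. It was 2.56 and 1.34 TPM in LN CD44low, 5.13 and 6.33 TPM in LN CD44high, 5.29 and 8.37 TPM in BM CD44low, and 7.85 and 9.90 TPM in BM CD44high. The lung libraries held 47.28 and 79.39 TPM in CD44low and 5.92 and 2.09 TPM in CD44high. MFP stood below and lung CD44low above all other libraries, and the BM, LN CD44high and lung CD44high groups overlapped their neighbours in the order of means. The differences from MFP ran from 2.19 ± 0.43 (SE, adjusted p = 0.00311) in lung CD44high, 2.73 ± 0.43 (0.00165) in LN CD44high, 2.93 ± 0.43 (0.00105) in BM CD44low and 3.28 ± 0.43 (0.000479) in BM CD44high to 5.95 ± 0.43 (2.8e-06) in lung CD44low. These 5 were called in every fit without 1 library. LN CD44low (1.51, adjusted p = 0.0438) kept its call only without 1 of the BM CD44low or lung CD44high libraries and reached 0.164 without the second MFP library. With MFP near 0 these sizes depend on the pseudocount: at 0.1 in place of 1 all 6 were called, LN CD44low at 4.16 (adjusted p = 0.000609) and the others from 5.05 in lung CD44high to 9.13 in lung CD44low. Pdgfrb in LN and BM lines rose beside fibroblast markers that were also higher than MFP, 3 of 10 in LN CD44low, LN CD44high and BM CD44low and 4 of 10 in BM CD44high. The sums of that list were 313.07 to 410.13 TPM in the LN groups and 578.86 to 803.79 TPM in the BM groups, mostly Vim, whereas Lum and Thy1 were at most 0.12 TPM and Col1a1 at most 1.98 TPM. Pericyte or smooth muscle markers were higher as well, 3 of 6 tested (Mcam, Des and Cnn1) in LN CD44low, LN CD44high and BM CD44low and 1 of 6 (Des) in BM CD44high. That list summed to 46.28 to 127.92 TPM in the LN groups and 21.31 to 49.58 TPM in the BM groups against 5.20 to 15.24 TPM in MFP, mostly Mcam, whereas Acta2 was at most 0.82 TPM. The part of both lists in the Pdgfrb levels was not tested.

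**Figure D2:**
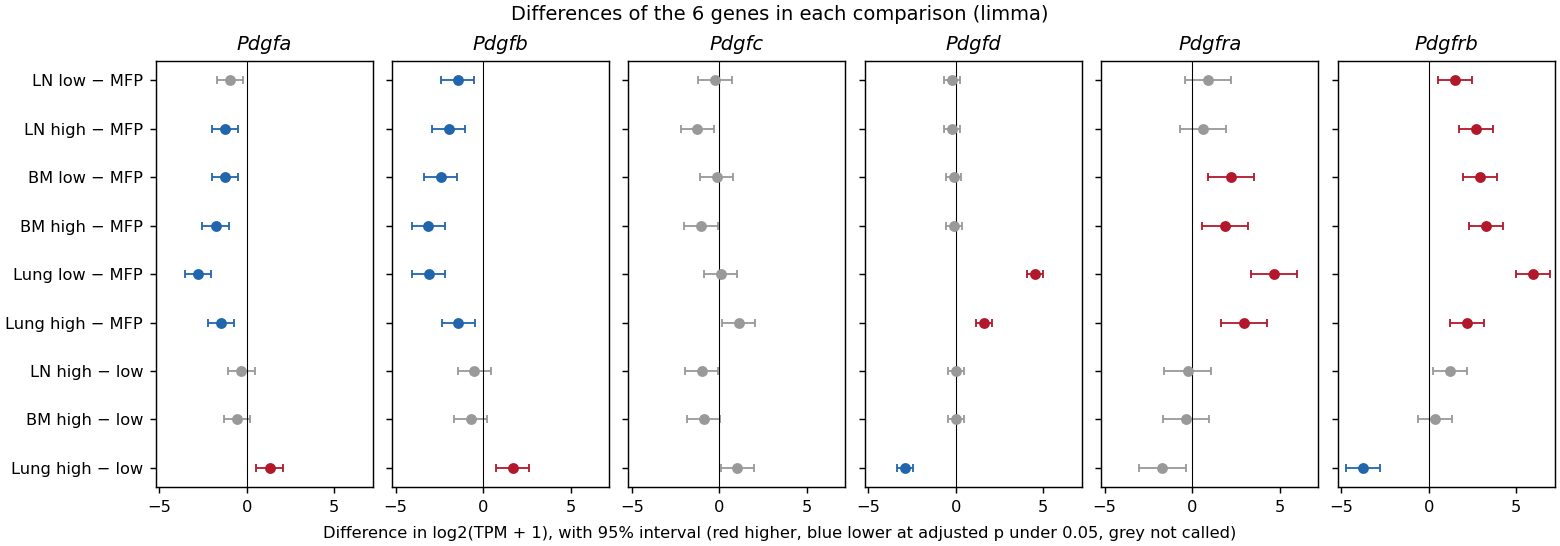
Difference in log2(TPM + 1) for each gene (panels) and comparison (rows), with the limma 95% interval; red points are higher and blue points lower at an adjusted p under 0.05, and grey points were not called. Pdgfb is blue and Pdgfrb red in all 6 comparisons with MFP, and in the comparison of CD44high with CD44low within lung the ligands Pdgfa and Pdgfb are red while Pdgfd and Pdgfrb are blue. The Pdgfd points of the lung groups against MFP are colored by the same rule but are a description, since only the lung libraries took this gene past the filter.

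The comparison of CD44high with CD44low cells asks what the sorted marker separates within an organ. None of the 6 genes was called in LN or in BM, where 0.378% (0.189% higher, 0.189% lower) and 0.15% (0.0717% higher, 0.0782% lower) of all genes were. Below an unadjusted 0.05 in limma there were 2 in LN, Pdgfc (-1.02, adjusted p = 0.452) and Pdgfrb (1.22, adjusted p = 0.366), and 0 in BM. In lung 4 of 6 were called, against 30.7% of all genes: 2 higher, against 12.2%, and 2 lower, against 18.5%. Pdgfa (1.31 ± 0.34, SE, adjusted p = 0.0155) and Pdgfb (1.69 ± 0.42, adjusted p = 0.0137) were higher in CD44high. Pdgfd (-2.91 ± 0.20, adjusted p = 3.1e-06) and Pdgfrb (-3.75 ± 0.43, adjusted p = 0.00012) were lower in CD44high, and these 2 calls held in every fit without 1 library. The Pdgfa and Pdgfb calls were lost without the second lung CD44low library (adjusted p = 0.114 and 0.0920) or the second lung CD44high library (0.1002 and 0.0761). Pdgfra (-1.71, adjusted p = 0.0538) became a call without the first lung CD44high library, at -2.72 (adjusted p = 0.00472), and without either BM CD44low library (0.0354), but was -0.69 (0.350) without the second lung CD44high library. Pdgfc (1.03, adjusted p = 0.0971) became one without either LN CD44low library (0.0457 and 0.0465). The summed fibroblast and smooth muscle markers were also lower in lung CD44high than in lung CD44low, with 8 of 10 and 4 of 6 tested genes called lower. Dcn gave most of the fibroblast sum in lung CD44low. The part of these markers in the receptor difference was not tested.

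The lung difference between CD44high and CD44low was itself compared with that in the other organs. Against LN, 5 of 6 genes differed, with 19.5% of all genes called: 3 higher, against 8.93%, and 2 lower, against 10.6%. Against BM 4 of 6 differed, with 15.3% called: 2 higher, against 6.43%, and 2 lower, against 8.86%. In each, 1 of the 2 lower was Pdgfd, and without it 4 and 3 of the other 5 genes differed. Pdgfrb differed by -4.97 ± 0.61 (SE, adjusted p = 0.000308) from LN and -4.11 ± 0.61 (adjusted p = 0.00117) from BM, and both held in every fit without 1 library. For Pdgfd, at or near 0 in LN and BM, the value (-2.91 in both) restates the lung difference and is a description. Pdgfa differed by 1.61 and 1.85 (adjusted p = 0.0412 and 0.0266), and Pdgfb by 2.19 and 2.41 (0.0289 and 0.0224). Pdgfc differed by 2.04 from LN (adjusted p = 0.0396) and by 1.92 from BM, the latter not called (0.0593). Against LN the Pdgfa call was lost in 10 of the 14 fits without 1 library, the Pdgfb call in 7 and the Pdgfc call in 9, with adjusted p up to 0.139, 0.101 and 0.119. Against BM those of Pdgfa and Pdgfb were lost in 5 and 4, and Pdgfc became a call in 4, without either MFP or either LN CD44low library (adjusted p = 0.0244 to 0.0470). It was also called with only the groups compared (0.0200) and with a replicate block (0.0437), whereas with no filter the Pdgfa, Pdgfb and Pdgfc calls against LN were lost (0.0515 to 0.0813). Pdgfra became a call in both without the first lung CD44high library (-2.46 and -2.35, adjusted p = 0.0326 and 0.0440), and shrank without the second (-0.44 and -0.33, adjusted p = 0.682 and 0.797). Both lung comparisons share the same 4 lung libraries.

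Taking both lung groups against the 4 LN and BM groups, 5 of 6 genes were called, and so were 59.9% of all genes: 4 higher, against 35.9%, and 1 lower, against 24%. The 4 include Pdgfd (3.23), a description for the reason above. Pdgfra (2.43 ± 0.36, SE), Pdgfrb (1.46 ± 0.26) and Pdgfc (1.27 ± 0.26) were higher in the lung groups, and Pdgfa (-0.82 ± 0.21) was lower. For each of these 4 genes the lung libraries overlapped those of LN and BM. Both lung CD44high libraries lay within the range of LN and BM for Pdgfrb and Pdgfa, and both lung CD44low libraries did for Pdgfc. Pdgfb differed by -0.01 ± 0.26 (95% interval -0.59 to 0.57).

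TPM is scaled for transcript length, so sums over these genes can be set side by side. The 4 ligands summed to 168.99 and 137.60 TPM in MFP and the 2 receptors to 0.37 and 0.48 TPM. In lung CD44low the ligands summed to 47.90 and 48.85 TPM and the receptors to 76.24 and 122.43 TPM. These 2 were the only libraries of the 14 with more receptor than ligand mRNA, at ratios of ligand to receptor of 0.628 and 0.399. Ratios in the first and second library were 25.005 and 18.3 in LN CD44low, 9.58 and 7.76 in LN CD44high, 5.33 and 4.60 in BM CD44low, 3.31 and 2.88 in BM CD44high, and 1.96 and 11.04 in lung CD44high. The make-up of the ligand pool also differed: Pdgfa gave 73.7% to 96.1% of ligand TPM in the 12 other libraries and 46.0% and 31.8% in lung CD44low, where Pdgfd gave 44.7% and 61.3%.

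**Figure D3:**
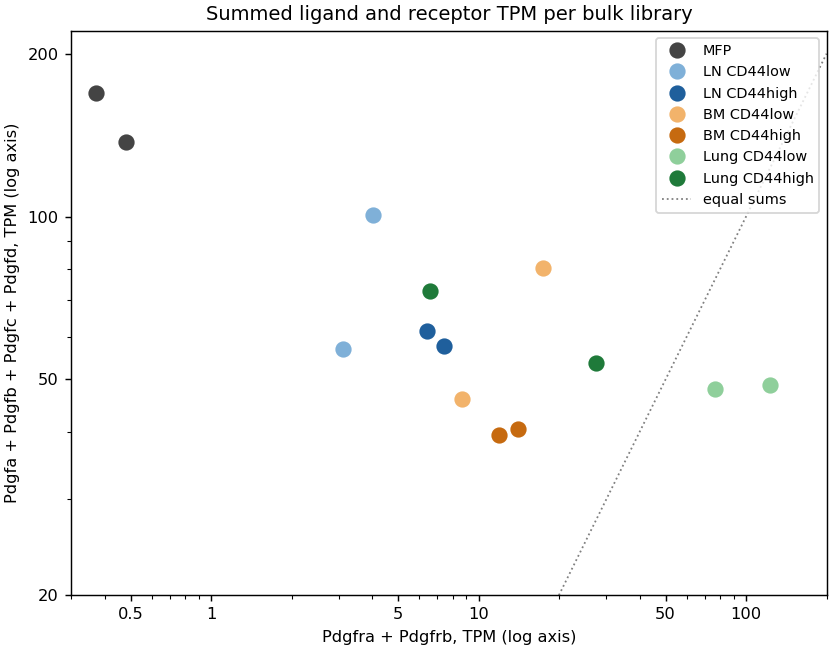
Summed TPM of the 2 receptor genes (horizontal, log axis) and of the 4 ligand genes (vertical, log axis) in each bulk library, colored by group; the dotted line marks equal sums. MFP lies at the upper left, with 137.60 to 168.99 TPM of ligand and under 0.5 TPM of receptor, and the 2 lung CD44low libraries lie to the right of the line.

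The genes whose bulk pattern was most like each member were ranked by Pearson r of log2(TPM + 1) over the 14 libraries, as a description. For Pdgfd they included Itga1 and Medag (r = 0.998 each), for Pdgfrb Lifr (0.971), Fam43a (0.947) and Dixdc1 (0.940), and for Pdgfra Lamb2 (0.955), Igfbp4 (0.951) and Rbpms (0.949). All 8 named had their highest group mean in lung CD44low. For Pdgfa they were Psmg3 (0.953), Cinp (0.943) and Ufsp1 (0.936), and for Pdgfb Zfp553 (0.930), Esco1 (0.918) and Basp1 (0.917), all highest in MFP. For Pdgfc they were Arfrp1 (0.905), Gtf2b (0.903) and Urgcp (0.896), highest in lung CD44high. Among the members, r was 0.88 for Pdgfa with Pdgfb, 0.84 for Pdgfra with Pdgfrb, and -0.91 for Pdgfa with Pdgfrb. All these values share the same 14 libraries in 7 groups, and those for Pdgfd rest mostly on the 2 lung CD44low libraries.

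The other genes of the pathway were counted from fixed lists, each count to be read against the shares of all genes called in the same comparison. Those were 4.5% higher and 9.51% lower than MFP in LN CD44low, 5.87% and 17.9% in LN CD44high, 9.36% and 13.8% in BM CD44low, 8.38% and 18.6% in BM CD44high, 21.9% and 23.1% in lung CD44low, and 14.9% and 21.2% in lung CD44high. Of 20 genes that process PDGF chains or bind PDGF or its receptors, 19 were tested. Sparc, which encodes a matrix protein that binds the B chain, was higher than MFP in all 6 groups, at 427.33 to 2242 TPM against 0.42 to 1.39 TPM. St14, which encodes matriptase, a membrane protease able to process latent PDGF, fell from an MFP range of 122.08 to 141.63 TPM to 25.19 to 59.39 TPM over LN and BM and to at most 0.11 TPM in lung. Lrp1, a co-receptor of PDGFRB, rose to 229.00 and 437.23 TPM in lung CD44low from 0.33 and 0.95 TPM in MFP. Plat and Plau, which encode plasminogen activators that cleave the C and D chains, both fell in lung CD44high (-2.65 and -2.36), and Plau also in BM CD44high (-2.91). Over the list 3 were higher and 1 lower than MFP in LN CD44low, 3 and 4 in LN CD44high, 5 and 3 in BM CD44low, 5 and 6 in BM CD44high, 9 and 2 in lung CD44low, and 4 and 3 in lung CD44high. In lung CD44high against CD44low 0 were higher and 9 lower (12.2% and 18.5% of all genes), with a median difference of -1.18 against -0.01 over all genes.

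Of 32 genes that carry the signal of the receptors, all were tested, and at most 2 were called in each direction against MFP in any LN or BM group. In lung CD44low 13 were higher and 4 lower (21.9% and 23.1% of all genes), with a median of 0.94 against 0.00 over all genes. The largest rise was in Grb10, a receptor adaptor, from at most 0.40 TPM in MFP to 186.54 and 269.20 TPM. In lung CD44high 7 were higher and 5 lower (14.9% and 21.2% of all genes), among the higher Grb14 (214.24 and 302.51 TPM, with 24.17 and 28.48 TPM in MFP) and Pik3r1, the regulatory subunit of PI3-kinase (27.70 and 48.65 against 6.30 and 7.51 TPM). Both were also higher in lung CD44low.

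Of 24 early genes that PDGF is known to induce, 23 were tested. Against MFP 8 fell and 0 rose in LN CD44low, 10 fell and 1 rose in LN CD44high, 9 fell and 1 rose in BM CD44low, 10 fell and 1 rose in BM CD44high, 10 fell and 7 rose in lung CD44low, and 10 fell and 1 rose in lung CD44high. Over all genes 9.51%, 17.9%, 13.8%, 18.6%, 23.1% and 21.2% fell in these comparisons. Medians in the LN and BM groups ran from -1.32 to -0.69, where those of all genes ran from -0.34 to -0.04. In lung the list's median was 0.30 in CD44low and -0.03 in CD44high, beside 0.00 and -0.04 over all genes. Fosl1, an AP-1 subunit, was lower in all 6 groups (70.73 and 91.43 TPM in MFP, 2.34 to 36.31 TPM elsewhere). Egr1, an immediate early factor, rose in lung CD44low (277.08 and 426.79 against 51.64 and 73.63 TPM) and fell in lung CD44high (12.11 and 33.86 TPM). Many other stimuli induce these genes, and the labels give no treatment with PDGF.

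Of 18 negative regulators of the receptors, 2 to 5 were called lower and 0 to 4 higher than MFP in each group, where 9.51% to 23.1% of all genes were lower and 4.5% to 21.9% higher. Dusp4, an ERK phosphatase, fell in all 6 groups. Socs3, a suppressor of cytokine signaling, rose in all groups but lung CD44high, reaching 78.99 and 137.81 TPM in lung CD44low from 3.84 and 5.16 TPM in MFP. Of 15 related ligands and receptors of the VEGF, KIT and CSF1 family, 12 were tested. Pgf, encoding placental growth factor, ranged between 7.26 and 57.93 TPM over LN and BM, and was at most 0.15 TPM in MFP and lung. Vegfd, whose product needs proteolytic activation as the PDGF D chain does, stood at 130.68 and 142.86 TPM in lung CD44low, 3.02 and 10.18 TPM in lung CD44high and at most 0.18 TPM elsewhere. Vegfc was at 34.88 and 46.8 TPM in lung CD44low, 40.07 and 49.1 TPM in lung CD44high and 4.47 and 15.24 TPM in MFP.

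The single-cell matrices give the counts of the same genes cell by cell. Cells with over 250 genes and under 10% mitochondrial counts were kept: 348 in lungL, 1236 in lungH and 2562 in lymphH, with 2220759, 2210623 and 5287425 counts. Median counts per cell were 4011, 557 and 585. The methods describe replicate lines for these assays too, and whether a deposited matrix joins several is not known here. With 1 matrix per group there is no test, and intervals (exact Poisson for levels, exact Clopper-Pearson for shares, 95%) cover counting error only. Epcam was found in 0 of 348 lungL cells, 2 of 1236 lungH cells and 339 of 2562 lymphH cells, as in the bulk libraries labelled lung. Dcn did differ from bulk, listed at 4091 and 4315 TPM in lung CD44low but with 22 counts in lungL. The fibroblast list was at 43.3 counts per 10000 in lungL and 36.1 in lungH. Cycling markers were at 3.91 in lungL, 12.9 in lungH and 14.6 in lymphH, whereas in bulk lung CD44high was far below LN CD44high.

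Pdgfrb was at 1.46 counts per 10000 in lungL (interval 1.31 to 1.63), 0.0679 in lungH (0.0380 to 0.112) and 0.0284 in lymphH (0.0159 to 0.0468). It was detected in 34.5% of lungL cells, 1.05% of lungH cells and 0.468% of lymphH cells. Cells with at least 1000 counts were also thinned to 1000 counts each. Among these it was detected in 13.9% of 238, 0.450% of 222 and 0 of 306 cells. The 110 lungL, 1014 lungH and 2256 lymphH cells under 1000 counts were left out, so these shares describe only the deeper cells. Pdgfra was at 0.635 in lungL (0.534 to 0.749), 0.176 in lungH (0.125 to 0.241) and 0.0567 in lymphH (0.0383 to 0.0810). Both receptors were thus highest in lungL. Pdgfra was lower in lymphH than in lungH, as in the means of the matching bulk groups, whereas the Pdgfrb intervals of lungH and lymphH overlapped. As means of per-cell values, Pdgfrb was 0.0733 in lungH and 0.00284 in lymphH, and Pdgfra 0.150 and 0.0278. For Pdgfrb bulk LN CD44high (5.13 and 6.33 TPM) did not lie below lung CD44high (5.92 and 2.09 TPM).

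Among the ligands, Pdgfa was at 0.693 per 10000 in lungL (0.588 to 0.812), 0.380 in lungH (0.303 to 0.470) and 0.798 in lymphH (0.724 to 0.878). Its order between the lung libraries was opposite to that in bulk, where both lung CD44low libraries lay below both lung CD44high libraries. Of the 154 lungL counts of Pdgfa, 77 came from the 38 cells of 1 cluster described below. The larger lungL clusters were at 0.427 (0.334 to 0.539) and 0.275 (0.0893 to 0.642, from 5 counts), and both intervals held the lungH level. Pdgfb was at 0.104 in lungL (0.0657 to 0.155), 0.339 in lungH (0.267 to 0.425) and 0.0889 in lymphH (0.0653 to 0.118), highest in lungH. Pdgfc was at 0.401 in lungL, 0.375 in lungH and 0.0208 in lymphH. Pdgfd gave 10 counts in lungL, 1 in lungH and 0 of 5287425 in lymphH, which at a limit of 3 counts per library allows up to 0.00567 per 10000. The 10 counts came from 7 cells. Against 154 counts of Pdgfa and 89 of Pdgfc in lungL, the large share of Pdgfd in the ligand TPM of bulk lung CD44low was thus not seen in the single cells, whose counts are not scaled for length.

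**Figure D4:**
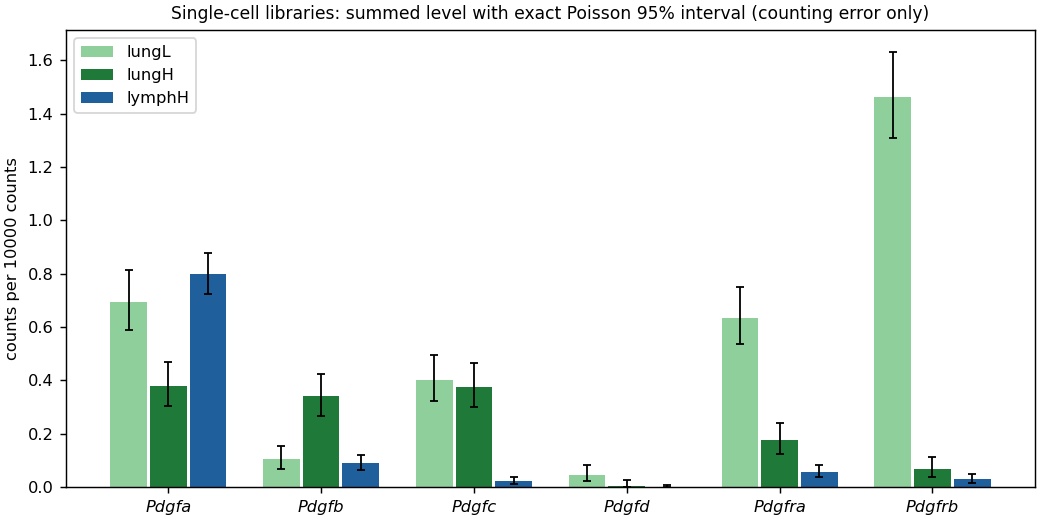
Counts of each gene per 10000 counts (vertical axis, linear) summed over the kept cells of the lungL, lungH and lymphH libraries; bars are 1 library each and error bars the exact Poisson 95% interval, which covers counting error only. Pdgfrb and Pdgfra are highest in lungL, Pdgfb in lungH and Pdgfa in lymphH.

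Cells were clustered without the 6 genes, and the clusters followed library and depth. Of the 348 lungL cells, 139 fell in a cluster led by Acta2, Grem1 and Bgn (median 11750 counts per cell) and 142 in one led by Col1a1, Col5a2 and Col1a2 (median 746). Another 38 fell in a cluster with 214 lungH cells led by Prl2c3, Aldh3a1 and Ctla2a, and 29 in clusters where lungL had fewer than 20 cells. In the Acta2-led cluster Pdgfrb was at 1.52 per 10000 (1.34 to 1.72), Pdgfra at 0.770 (0.643 to 0.916), Pdgfc at 0.457 (0.360 to 0.573) and Pdgfa at 0.427 (0.334 to 0.539). All 10 lungL counts of Pdgfd were there, and Pdgfb had 2 counts (0.0120). The Col1a1-led cells had Pdgfrb at 3.14 (2.38 to 4.06) and Pdgfra at 0.660 (0.341 to 1.15), with 0 Pdgfb counts of 181720, which at 3 counts allows up to 0.165.

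The 38 lungL cells that clustered with lungH were different. Pdgfa was at 2.16 per 10000 in them (1.71 to 2.70) and Pdgfb at 0.589 (0.365 to 0.901), while Pdgfra had 0 counts of 356254, which at 3 counts allows up to 0.0842, and Pdgfrb was at 0.449 (0.257 to 0.729). These cells were 10.9% of the library and held 16.0% of its counts, but 77 of its 154 Pdgfa counts and 21 of its 23 Pdgfb counts. The 214 lungH cells of the same cluster had Pdgfa at 0.353 (0.268 to 0.456) and Pdgfb at 0.365 (0.279 to 0.470). Pdgfa in the 38 cells was thus above that in their lungH neighbours by more than the counting intervals. Acta2 was at 1.96 per 10000 in the 38 cells, 54.4 in the Acta2-led cells and 0.0547 in the lungH cells of the shared cluster, and Aldh3a1 at 0.982, 0.169 and 14.7. Of the 30 lungL counts of Krt8, a keratin of simple epithelia, 27 were in the 38 cells. Whether the 38 included droplets with RNA of 2 cells was not settled: 0 doublets were called in lungL and 5 of 4146 in all libraries.

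**Figure D5:**
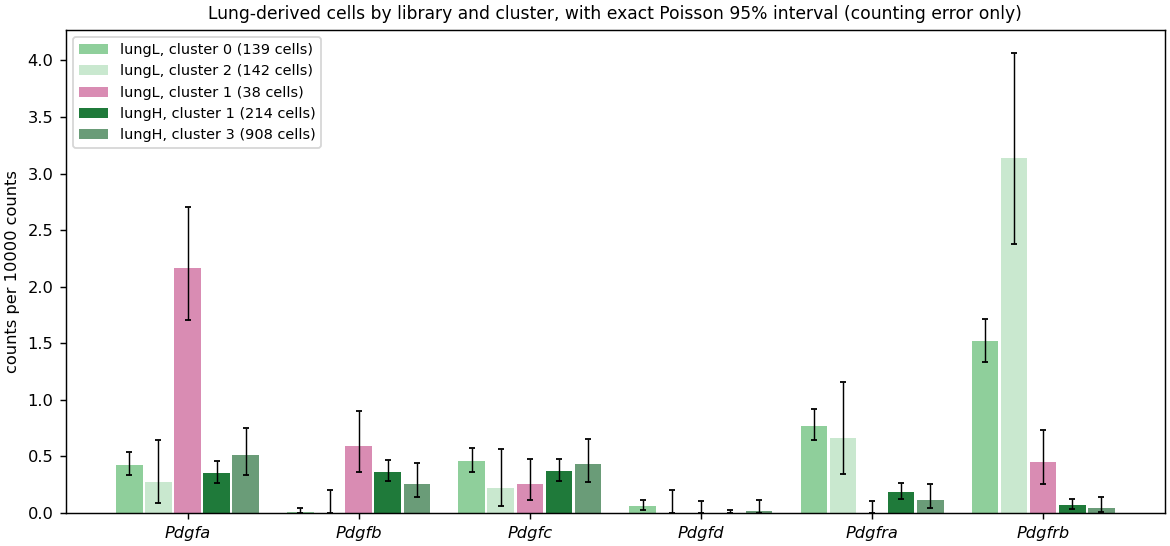
Counts per 10000 (vertical axis, linear) of each gene in lung-derived cells split by library and cluster, with the exact Poisson 95% interval (counting error only); cluster 0 is led by Acta2, cluster 2 by Col1a1 and cluster 1 is shared, and the smaller groups of cells are not drawn. Pdgfa and Pdgfb are highest in the 38 lungL cells that clustered with lungH, and Pdgfra and Pdgfrb in the other lungL cells.

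Detection of ligand and receptor in the same cell was also counted. In lungL 113 of 348 cells held a count of some ligand and 144 of some receptor, and 72 held both. Their median depth was 12382 counts against 4011 over all lungL cells. Pdgfra and Pdgfrb were detected together in 40 lungL cells, in 1 lungH cell and in 0 lymphH cells. In lungH 132 cells held a ligand, 31 a receptor and 13 both, and in lymphH 250, 35 and 23. Cells with both were far deeper than the median cell there too (median 11855 and 20175 counts). Free RNA was not estimated, so these are counts of detection, not of cells expressing both, and the shares cannot be compared between libraries of these depths.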

How the data were processed

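Bulk RNA was sequenced in 14 libraries, and the authors deposited 1 table of TPM per Ensembl gene. The processing notes name STAR, RSEM and kallisto with mm10, and per the labels no version was given. TPM keeps no depth, so read depth per bulk library is unknown; 11508 to 13052 genes reached 1 TPM per library, and no interval from counts was given. All 55450 gene identifiers matched GENCODE vM21, and symbols came from the row names of a single-cell matrix. For single cells the authors deposited 3 matrices of whole-number counts per gene and barcode; whether they count molecular identifiers is not given in the sources used here. There were 0 columns without a sample.

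The 15348 genes reaching 1 TPM in 2 or more libraries were fitted as log2(TPM + 1) on 7 group means with limma 3.58.1 (trend=TRUE, 2-sided, 7 residual degrees of freedom) in R 4.3.3, with Benjamini-Hochberg adjustment over all genes; a pseudocount of 1 understates changes of low genes. With 2 libraries a group an exact permutation test cannot go below p = 0.333. A run on simulated data served only to check the code. Replicate numbers in the labels were not used to pair samples in the main fit. Cells with over 250 genes and under 10% mt- counts were kept; levels were summed counts per 10000, and Leiden clusters (scanpy 1.11.5, resolution 0.8, 20 components) were made without the 6 genes. Doublets were called per library and not removed. Upstream windows came from RefSeq, GRCm38.p6.

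The genes, gene lists and marker lists were chosen with earlier results of these data known. The genes named are the 6 members, the 3 genes most correlated with each (1 of these is not reported here), markers, and list genes that a sentence turns on, the last chosen after their values were seen. Alternatives tried were a pseudocount of 0.1, no filter or 5 TPM, median-ratio scaling, only the groups compared, a replicate block, an added fold threshold, leaving out each library, and other cell filters.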

Additional observations from a re-analysis of the deposited data

Results flagged for a closer look

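The difference between CD44high and CD44low cells in lung differed from that in LN for 5 of the 6 genes and from that in BM for 4, by the test of the difference itself in limma, where 19.5% and 15.3% of all genes did. Without Pdgfd, which passed the filter on low values only through the lung libraries, they were 4 and 3 of the other 5 genes. On the log2(TPM + 1) scale the lung difference exceeded the LN difference by 1.61 for Pdgfa, 2.19 for Pdgfb and 2.04 for Pdgfc, and differed from it by -2.91 for Pdgfd and -4.97 for Pdgfrb. It exceeded the BM difference by 1.85 for Pdgfa and 2.41 for Pdgfb, and differed from it by -2.91 for Pdgfd and -4.11 for Pdgfrb. The Pdgfd values are a description, since the gene was at or near 0 in LN and BM. Without 1 library at a time the LN calls of Pdgfa, Pdgfb and Pdgfc were lost in 10, 7 and 9 of 14 fits and the BM calls of Pdgfa and Pdgfb in 5 and 4, while those of Pdgfrb held in all 14. In the lung libraries Pdgfa and Pdgfb were higher and Pdgfd and Pdgfrb lower in CD44high cells, and neither the LN nor the BM difference was called for any of these. Epcam was near 0 in all 4 lung libraries, and the fibroblast and smooth muscle marker sums were higher in lung CD44low than in lung CD44high. Most of the lung CD44low fibroblast sum was Dcn, which had 22 counts in lungL. The part of these markers in the differences above was not tested.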

How the results depend on the processing

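Replicate numbers were checked for pairing over 21 pairs of groups: deviations of same-numbered libraries correlated between -0.19 and 0.17, over 0.1 in only 3. With 2 libraries a group this check cannot exclude that same-numbered lines came from 1 mouse, which the labels do not state. With a replicate block the number of genes called in LN CD44low against MFP was 0 in place of 2, and counts in the other 11 comparisons stayed within 1.5 times. Taking each gene in each comparison, 65 results were unchanged by the block, 4 lost a call and 3 gained one. The LN CD44low count was also 0 with only the groups compared, with an added fold threshold (log2 difference over 2) or with no filter, and 1 with a pseudocount of 0.1, with median-ratio scaling, or without the lung libraries in the fit, a setting chosen after seeing the data. The fold threshold left 1 in LN CD44high, 2 in BM CD44high, 2 in lung CD44high, 2 in lung CD44high against CD44low, and 2 in lung against LN and BM. With only the groups compared there were 1 in BM CD44low, 2 in lung CD44high and 3 for the lung CD44 difference against that of LN, which was 2 with no filter.

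Leaving out 1 library at a time, counts ranged over 0 to 2 in LN CD44low, 1 to 4 in LN CD44high, 2 to 4 in BM CD44low, 3 to 4 in BM CD44high, 5 to 5 in lung CD44low, 3 to 6 in lung CD44high, 0 to 0 for CD44 within LN and within BM, 2 to 5 within lung, 5 to 5 for lung against LN and BM, and 2 to 5 for the lung CD44 difference against LN and against BM. Some uncalled differences changed sign: Pdgfc ranged from -0.85 to 0.34 in LN CD44low, -0.66 to 0.35 in BM CD44low and -0.43 to 0.58 in lung CD44low against MFP. Within LN, Pdgfa ranged from -0.67 to 0.071 and Pdgfb from -1.09 to 0.086 between CD44high and CD44low, and within BM Pdgfd from -0.062 to 0.075 and Pdgfra from -0.98 to 0.24. Pdgfb ranged from -0.16 to 0.13 for lung against LN and BM. Median-ratio scaling turned Pdgfc in BM CD44low against MFP to 0.055, still not called, and moved the median of all genes by over 0.1, from -0.34 to 0.04 in BM CD44high against MFP. The cause of these changes was not tested.

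In the single cells, means of per-cell values gave lungL levels of 0.553 for Pdgfa and 0.319 for Pdgfc, and lymphH levels of 0.0520 for Pdgfb, 0.00883 for Pdgfc, 0.0278 for Pdgfra and 0.00284 for Pdgfrb per 10000. With all barcodes lungL had 0.522 for Pdgfra and 1.15 for Pdgfrb, and with over 500 genes per cell Pdgfd in lungH was 0. The depth of each bulk library is unknown beyond the minimum that the methods state, and levels under 1 TPM or of 1 to 3 counts are not resolved.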
